A study of Mus musculus with 16 samples.

Results

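Inguinal white adipose tissue (iWAT), a subcutaneous depot of the groin, was compared with epididymal white adipose tissue (eWAT), an intra-abdominal depot beside the testis, in obese mice on the control diet. Of the 16 bead arrays of the series, 8 belong to this comparison: 4 of iWAT and 4 of eWAT, matched by the animal number that the labels give to both depots of a mouse. All mice were singly housed male C57BL/6J fed a high-fat diet with 60% of energy as fat (Research Diets D12492), aged 17 weeks at the start of the experimental diets and killed at 21 weeks, after 4 weeks of free feeding. The iWAT control and eWAT control groups received this diet with no supplement. The other 8 arrays, iWAT scoparia and eWAT scoparia, came from 4 other mice whose same diet held 1% by weight of an extract of Artemisia scoparia. They are used to set the control values beside another group of mice. They also entered the normalization, the filter on detection and the choice of probes. There was no lean group, so a difference between the depots is one between 2 depots of obese males, and each array holds all the RNA of a piece of tissue, in which fewer cells of a type and less RNA per cell cannot be told apart.

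Subcutaneous and visceral fat arise from different embryonic mesoderm, and their stromal cells and adipocytes keep depot-specific patterns of developmental transcription factors, among them the Hox genes that record position along the body axis. Visceral depots of the abdomen are covered by mesothelium, a sheet of epithelium-like cells that subcutaneous depots lack. In obesity, macrophages gather around dying adipocytes in crown-like structures, in mice above all in the epididymal pad, and take on a lipid-handling state marked by Trem2 and Cd9. Inguinal fat more readily forms beige adipocytes, which burn fuel to make heat, and the inguinal pad encloses a lymph node and lies against the muscle of the leg and abdominal wall.

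The values are normalised intensities on the log2 scale, 1 probe per gene, and a difference is iWAT minus eWAT, fitted within animals. It is given ± the moderated standard error of limma from the 4 pairs unless stated otherwise. That error draws the spread of each gene toward a value shared by all genes, so it is not the plain error of the 4 pairs. A gene passed the test at a Benjamini-Hochberg adjusted p under 0.05 over all 11050 genes tested. The share of probes detected above the negative control beads was 50.5% to 52.1% on the iWAT arrays and 53.6% to 56.0% on the eWAT arrays. The first principal component of the 8 arrays held 52.5% of the variance, with iWAT control 1 and 4 at one end (-64.8 and -59.4), iWAT control 2 and 3 at -13.4 and 4.37, and the eWAT arrays between 5.75 and 53.3. Over all genes iWAT control 3 had a mean correlation of 0.938 with the other iWAT arrays and 0.946 with the eWAT arrays, although the depot-marking genes given next placed it with iWAT. The array eWAT control 2 stood apart from the other eWAT arrays in macrophage and adipocyte genes, as given with those genes.

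The labels held against genes that mark the depots. Hoxc10, a posterior Hox factor, read 9.11, 8.73, 8.90 and 9.04 in iWAT of animals 1 to 4, against 4.47, 4.40, 4.43 and 4.55 in eWAT, where no array detected it. Upk3b, a uroplakin of mesothelial cells, read 5.09, 5.02, 5.08 and 4.71 in iWAT, where no array detected it, against 9.75, 10.33, 9.83 and 9.52 in eWAT. In both genes the depots were far apart on every array, and every animal showed the same direction. Both are also leading genes, whose rule required that the depots do not overlap and that all animals agree in direction. The adipocyte markers Adipoq, which encodes adiponectin, and Plin1, the coat protein of the lipid droplet, were detected on all 8 arrays, as were all 24 genes of the adipocyte list. Of 25 genes of epididymis and testis on the array, 19 were detected on no iWAT array and 16 on no eWAT array, and none of the 4 that could be tested passed.

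Of the 11050 genes, 405 passed the test (3.67%), 166 of them higher in iWAT (1.5%) and 239 lower (2.16%). The counts of control mice within a gene list, given below, are to be read beside these shares. All 405 had the same sign in all 4 animals, 403 differed by at least 2-fold, and in 368 the arrays of the depots did not overlap, against 1973 genes without overlap among all tested (17.9%). The median size of a difference that passed was 1.60, while the median difference of all genes was 0.08. Of all genes 55.4% had a positive difference, higher in iWAT, and 3147 had an unadjusted p under 0.05 with limma. These counts rested heavily on single animals and on the pairing: 718 genes passed without it, and with the pairing 151, 2022, 11 and 20 passed without animal 1, 2, 3 and 4. The arrays of the leading genes are shown in the plot of the largest rises and falls.

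**Figure D1:**
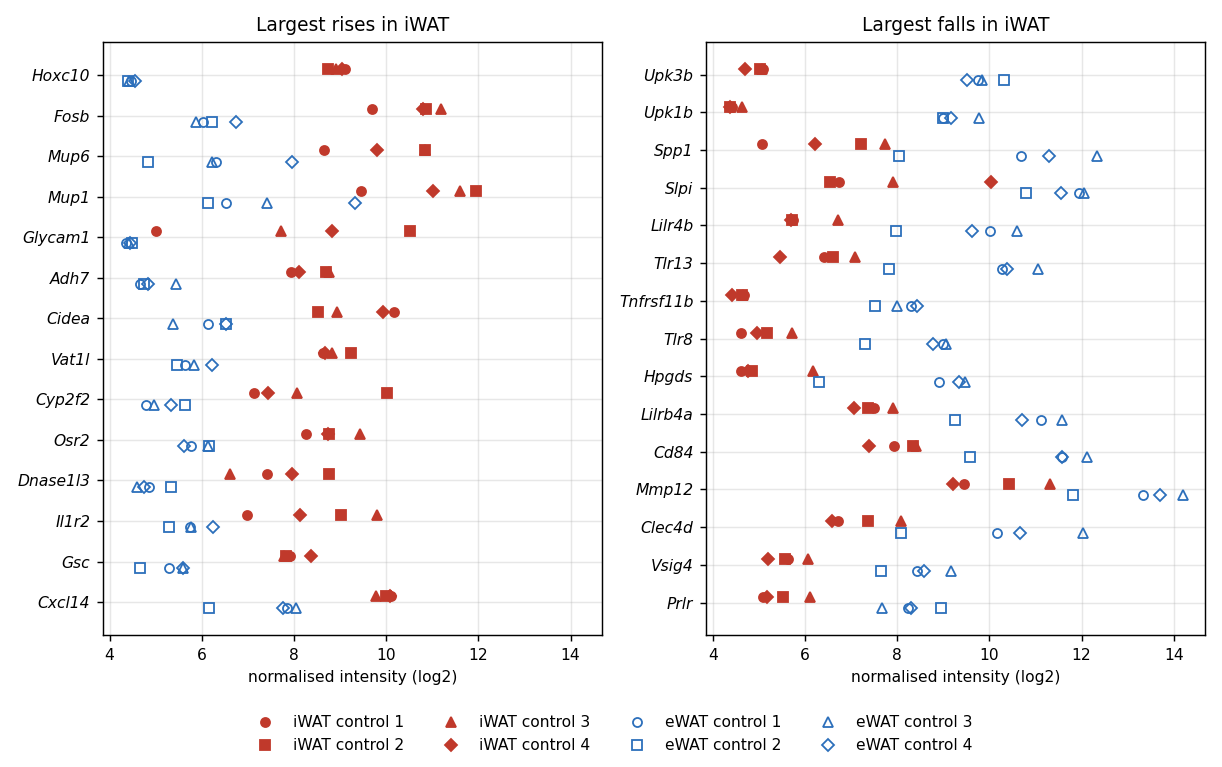
Normalised intensity (log2, horizontal axis) of 14 of the 15 genes with the largest rises and the 15 with the largest falls in iWAT against eWAT of control mice, 1 point per array, with iWAT filled red above eWAT open blue and 1 symbol per animal. The rule that chose these genes required that the arrays of the 2 depots do not overlap. The array iWAT control 1 lies lowest of the iWAT arrays in Glycam1 (5.02) and Il1r2 (6.98), and eWAT control 2 lies lowest of the eWAT arrays in most of the macrophage genes on the right, such as Hpgds (6.30) and Tlr13 (7.82).

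The promoter windows of the leading fall, Upk3b, and of Adh7 and Gsc among the leading rises are shown because these genes set the depots apart on every array. The rule that named the leading genes required this. The windows are RefSeq sequence of build GRCm38.p6, from 250 bases before to 50 after the annotated start, 5′ to 3′ on the gene's strand. That of Upk3b lies at chr5:136038246-136038545 (+ strand). The capitals in Adh7, at chr3:138217523-138217822 (+ strand), and in Gsc, at chr12:104473187-104473486 (- strand), mark TATAAA or its reverse complement, the letters of the TATA box, which 13.6% of all 32851 windows hold on either strand and which stood in 3 of the 9 windows of the leading rises and 4 of the 16 of the leading falls. In both genes the match lies further upstream than a TATA box usually does, at base -202 in Adh7 and -164 in Gsc, counted from the start to the first base shown in capitals.
Upk3b: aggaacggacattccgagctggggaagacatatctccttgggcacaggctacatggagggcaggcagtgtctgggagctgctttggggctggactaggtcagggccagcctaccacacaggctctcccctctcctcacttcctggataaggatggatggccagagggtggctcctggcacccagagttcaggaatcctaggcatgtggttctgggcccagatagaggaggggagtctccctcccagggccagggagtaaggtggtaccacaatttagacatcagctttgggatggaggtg
Adh7: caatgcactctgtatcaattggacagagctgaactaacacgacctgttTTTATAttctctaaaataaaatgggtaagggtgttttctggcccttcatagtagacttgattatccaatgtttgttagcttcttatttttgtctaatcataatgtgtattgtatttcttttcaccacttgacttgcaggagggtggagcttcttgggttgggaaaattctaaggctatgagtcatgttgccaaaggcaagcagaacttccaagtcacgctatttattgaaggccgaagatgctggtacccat
Gsc: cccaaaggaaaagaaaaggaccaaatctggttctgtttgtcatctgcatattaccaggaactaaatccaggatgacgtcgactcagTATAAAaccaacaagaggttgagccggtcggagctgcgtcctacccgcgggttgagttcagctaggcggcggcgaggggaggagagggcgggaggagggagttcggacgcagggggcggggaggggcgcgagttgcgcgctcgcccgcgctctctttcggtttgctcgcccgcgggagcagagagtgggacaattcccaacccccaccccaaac

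Developmental transcription factors separated the depots in both directions. Of 39 Hox genes on the array 23 were tested, and 3 rose in iWAT, Hoxc10, Hoxc9 and Hoxd10, with none falling. The median over the 23 was 0.54, against 0.08 over all genes, and 18 of 23 were positive. In scoparia mice the median over the list was 0.05 and 13 of 23 were positive. There 5 rose and none fell, beside 7.37% of all genes that rose. Hoxc10 rose by 4.48 ± 0.21 (SE, n = 4 pairs, adjusted p = 0.000121), or at least 15.6-fold against the detection floor of the eWAT arrays. Hoxc9, its neighbour in the HoxC cluster, read 10.18, 10.07, 10.32 and 10.20 in iWAT, against 8.07, 7.93, 8.22 and 8.28 in eWAT, a rise of 2.07 ± 0.21 (adjusted p = 0.00678). Hoxd10 read 5.61, 6.38, 5.96 and 5.57 in iWAT, against 4.53, 4.84, 4.83 and 4.78 in eWAT, where it was not detected (1.14 ± 0.23, adjusted p = 0.0406). All 3 showed 2 separate sets of arrays. Hoxd9 differed by 1.19 ± 0.30 and missed the threshold (adjusted p = 0.0682), and Hoxa5, an anterior member, by -0.41 ± 0.24 (adjusted p = 0.287).

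Other patterning genes of the limb, skin and body wall also rose in iWAT. Of 22 on the array 8 were detected on no iWAT array and 13 on no eWAT array, and 12 were tested. Of these 12, En1, Twist2, Irx2 and Shox2 rose by 1.66 to 1.74 and none fell, with a list median of 0.78. En1, Irx2 and Shox2 were detected on no eWAT array, and a gene kept through iWAT alone can hardly fall. En1, the engrailed homeobox factor of ventral ectoderm and dermis, read 6.55, 6.18, 6.48 and 6.57 in iWAT, against 4.64, 4.72, 4.50 and 4.98 in eWAT (at least 2.76-fold, adjusted p = 0.0141). Shox2, a homeobox factor of the proximal limb, read 6.76, 5.74, 6.53 and 6.65 in iWAT, against 4.74, 4.81, 4.72 and 4.70 in eWAT (at least 2.71-fold, adjusted p = 0.0229). No eWAT array detected either gene. Twist2, a basic helix-loop-helix factor of dermal mesenchyme, was detected in both depots and averaged 9.01 ± 0.14 in iWAT and 7.35 ± 0.25 in eWAT (SD, n = 4 each). Among the leading rises were also the odd-skipped factor Osr2 (2.88 ± 0.24, adjusted p = 0.00366) and goosecoid, Gsc (2.69 ± 0.24, adjusted p = 0.00494), a homeobox factor of the organizer of the embryo. Gsc read 7.91, 7.83, 7.79 and 8.37 in iWAT, against 5.30, 4.66, 5.59 and 5.59 in eWAT.

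Visceral patterning genes went the other way. Of 18 on the array 15 were detected on no iWAT array and 10 on no eWAT array, and 6 were tested. Of these 6, Tcf21, Bnc1 and Isl1 fell in iWAT and none rose, with a median of -1.09. A gene kept through detection in eWAT alone can hardly rise in iWAT, so the median and the lack of rises are no separate support. Tcf21, a basic helix-loop-helix factor of visceral mesenchyme, read 4.39, 4.46, 4.61 and 4.37 in iWAT, against 6.33, 6.75, 6.10 and 6.77 in eWAT (at least 2.51-fold lower, adjusted p = 0.0113). Bnc1, a zinc finger factor found in mesothelium, differed by -1.76 ± 0.22 (adjusted p = 0.0135) and Isl1, a LIM homeobox factor, by -1.36 ± 0.26 (adjusted p = 0.0397). All 3 were detected on all 4 eWAT arrays and on no iWAT array. Osr1, a close relative of Osr2, differed by -0.83 ± 0.32 and did not pass (adjusted p = 0.15).

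Mesothelial genes were lower in iWAT. Of 23 marker genes tested 9 fell in iWAT and none rose, with a median of -1.03, beside 2.16% of all genes that fell and 1.5% that rose. Of the 23, 20 were detected on all eWAT arrays, against 7 of 23 on all iWAT arrays and 8 on no iWAT array. The mean level over the list was 5.86 to 6.22 on the iWAT arrays, against 7.31 to 7.57 on the eWAT arrays, so the depots did not overlap and no array stood apart. A gene kept through detection in eWAT alone can hardly rise in iWAT. The median, the mean level and the lack of rises are therefore no separate support. Upk3b fell by 4.88 ± 0.22 (adjusted p = 0.000121), at least 25.9-fold. Upk1b, another uroplakin, read 4.41, 4.38, 4.62 and 4.37 in iWAT, against 9.004, 8.99, 9.78 and 9.16 in eWAT, at least 16.8-fold lower (adjusted p = 0.000121). Msln, which encodes the surface protein mesothelin, read 4.43, 4.35, 4.83 and 4.39 in iWAT, against 6.97, 7.77, 6.70 and 6.93 in eWAT (at least 3.81-fold lower, adjusted p = 0.00883). None of these 3 was detected on an iWAT array. The adhesion protein Lrrn4 (-2.14 ± 0.21), the keratin Krt8 (-1.96 ± 0.25), the membrane glycoprotein Gpm6a (-2.36 ± 0.35), Bnc1 and Isl1 passed as well. Without animal 1, 2, 3 and 4 the list held 8, 13, 2 and 4 falls, beside 77, 1007, 6 and 10 falls over all genes.

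Slpi, a secreted protease inhibitor of epithelial surfaces and the other mesothelial gene to pass, varied more within iWAT. It read 6.73, 6.54, 7.90 and 10.03 in iWAT, against 11.94, 10.80, 12.06 and 11.55 in eWAT, with animal 4 the highest iWAT value and still below the lowest eWAT value (-3.79 ± 0.53, adjusted p = 0.0176). Krt14, a keratin of basal epithelial cells, was the one gene of 7 tested on the skin and mammary epithelium list to pass, and it was lower in iWAT, at 4.66, 4.51, 4.37 and 4.53 against 6.87, 6.82, 7.32 and 7.49 in eWAT (at least 3.90-fold lower, adjusted p = 0.00532). Of the 21 genes of that list on the array 16 were detected on no iWAT array and 14 on no eWAT array. Tnfrsf11b, which encodes osteoprotegerin, the decoy receptor of the bone-resorption signal RANKL, read 4.68, 4.64, 4.65 and 4.42 in iWAT, where it was not detected, against 8.29, 7.52, 7.99 and 8.43 in eWAT (at least 7.44-fold lower, adjusted p = 0.00186). Prlr, the prolactin receptor, read 5.10, 5.53, 6.10 and 5.17 in iWAT, against 8.24, 8.95, 7.67 and 8.30 in eWAT (-2.82 ± 0.33, adjusted p = 0.0113). Krt14 separated the depots on all arrays, while for Slpi, Tnfrsf11b and Prlr this was a condition of the rule that named them.

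Genes of macrophages stood among the leading falls. Of 21 genes of lipid-associated macrophages 8 fell in iWAT and none rose, with a median of -1.24 and 2 of 21 positive. Of 21 general macrophage genes 7 fell and none rose, with a median of -0.96 and 5 of 21 positive. Beside these counts, 2.16% of all genes fell and 1.5% rose, with a median of 0.08. Spp1, the secreted phosphoprotein osteopontin, read 5.08, 7.21, 7.73 and 6.21 in iWAT, against 10.69, 8.03, 12.34 and 11.28 in eWAT (-4.03 ± 0.71, adjusted p = 0.0304). Mmp12, the macrophage elastase, read 9.45, 10.43, 11.32 and 9.22 in iWAT, against 13.33, 11.81, 14.19 and 13.71 in eWAT (-3.16 ± 0.47, adjusted p = 0.021). Trem2, the lipid-sensing receptor that marks these cells, read 9.20, 8.51, 8.66 and 9.39 in iWAT, against 12.18, 9.57, 12.77 and 12.09 in eWAT (-2.71 ± 0.44, adjusted p = 0.0258). In all 3 genes the array eWAT control 2 was by far the lowest of eWAT yet above every iWAT array. For Spp1 and Mmp12 the lack of overlap was a condition of the rule that named them. The glycoprotein Gpnmb (-1.97 ± 0.36), the fungal lectin receptor Clec7a (-2.38 ± 0.49), the tetraspanin Cd9 (-1.45 ± 0.31), the integrin Itgax (-2.35 ± 0.37) and the protease Ctsl (-1.63 ± 0.27) completed the 8.

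Among general macrophage genes, Adgre1, which encodes the F4/80 antigen, read 10.54, 10.52, 10.98 and 10.68 in iWAT, against 12.57, 10.82, 13.01 and 12.87 in eWAT (-1.64 ± 0.34, adjusted p = 0.0458). Here eWAT control 2 lay within the range of iWAT, so the arrays overlapped. Cd68, a lysosomal glycoprotein, differed by -2.37 ± 0.32 (adjusted p = 0.0167), the efferocytosis receptor Mertk by -1.77 ± 0.24 (adjusted p = 0.0163), and Itgam, the CD11b integrin, by -1.92 ± 0.26 (adjusted p = 0.0158). Ms4a7, the Fc receptor Fcgr3 and the folate receptor Folr2 passed in the same direction. The mean level of the lipid-associated list was 9.73, 9.80, 9.89 and 9.84 on the iWAT arrays, against 11.23, 10.19, 11.74 and 11.35 on the eWAT arrays. The iWAT arrays were alike, and the eWAT arrays spread over a much wider range.

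The counts of these lists varied with the animal left out, as did those of all genes. Without animal 2 the lipid-associated list held 14 falls and 1 rise and the macrophage list 14 falls and 1 rise. Over all 11050 genes that fit gave 1007 falls and 1015 rises. Without animal 1 the 2 lists held 4 and 3 falls, beside 77 falls over all genes. Without animal 3 or animal 4 none passed in either list, beside 6 and 10 falls over all genes. Leaving out animal 2 removes both of its arrays, so the part of eWAT control 2 in these counts was not tested. In the scoparia mice, which share no array with these, 15 of 21 lipid-associated and 13 of 21 macrophage genes fell and 0 and 3 rose, beside 9.71% of all genes that fell there and 7.37% that rose.

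Receptors by which myeloid cells sense microbes and dead cells stood among the largest falls. Tlr13, a receptor for bacterial ribosomal RNA, read 6.41, 6.61, 7.10 and 5.46 in iWAT, against 10.26, 7.82, 11.06 and 10.39 in eWAT (-3.49 ± 0.54, adjusted p = 0.0229). Tlr8, an endosomal RNA sensor, read 4.60, 5.17, 5.71 and 4.97 in iWAT, against 8.995, 7.30, 9.06 and 8.78 in eWAT (-3.42 ± 0.36, adjusted p = 0.00825). Lilr4b, an inhibitory leukocyte receptor, read 5.74, 5.72, 6.72 and 5.70 in iWAT, against 10.02, 7.97, 10.59 and 9.62 in eWAT (-3.58 ± 0.35, adjusted p = 0.00609). The highest iWAT array in each was that of animal 3, and the lowest eWAT array that of animal 2. Its near-identical neighbour Lilrb4a differed by -3.21 ± 0.34, and a probe may read both. The signalling-lymphocyte receptor Cd84 (-3.20 ± 0.46), the C-type lectin Clec4d (-3.04 ± 0.53) and the complement receptor Vsig4 (-2.84 ± 0.27) fell too. Hpgds, the haematopoietic synthase of prostaglandin D2, read 4.62, 4.84, 6.18 and 4.77 in iWAT, against 8.91, 6.30, 9.47 and 9.35 in eWAT (-3.41 ± 0.48, adjusted p = 0.0179).

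The promoter windows of 3 of these genes are shown because they share the letters GAGGAAG, the core bound by Spi1 (PU.1), the factor that directs macrophage development. On either strand 13.6% of all windows hold it, against 6 of the 16 windows of the leading falls and 0 of the 9 windows of the leading rises, the windows of a gene with several starts being counted separately. It was 1 of 8 motifs searched, chosen with these results known, and a match is a description of letters and not a bound site. Capitals mark GAGGAAG, or CTTCCTC where the match lies on the other strand. The windows lie at chrX:106143025-106143324 (+ strand), chr6:65144681-65144980 (- strand) and chr6:123261857-123262156 (+ strand).
Tlr13: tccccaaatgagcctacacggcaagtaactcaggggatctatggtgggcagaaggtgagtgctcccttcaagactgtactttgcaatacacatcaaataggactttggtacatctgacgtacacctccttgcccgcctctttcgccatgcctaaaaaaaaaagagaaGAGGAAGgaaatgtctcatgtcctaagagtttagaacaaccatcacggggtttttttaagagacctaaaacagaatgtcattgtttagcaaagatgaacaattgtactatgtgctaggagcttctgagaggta
Hpgds: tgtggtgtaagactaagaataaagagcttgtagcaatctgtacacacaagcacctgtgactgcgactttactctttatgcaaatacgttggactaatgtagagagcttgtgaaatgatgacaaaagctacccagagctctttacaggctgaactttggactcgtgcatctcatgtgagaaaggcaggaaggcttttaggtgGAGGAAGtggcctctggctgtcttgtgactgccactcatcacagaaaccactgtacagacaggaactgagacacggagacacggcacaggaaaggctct
Clec4d: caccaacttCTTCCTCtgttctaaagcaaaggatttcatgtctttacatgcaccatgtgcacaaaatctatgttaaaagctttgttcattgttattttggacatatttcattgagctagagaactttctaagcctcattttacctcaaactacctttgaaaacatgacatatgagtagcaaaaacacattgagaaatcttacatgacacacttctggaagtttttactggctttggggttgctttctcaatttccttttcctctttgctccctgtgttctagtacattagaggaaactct

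Some inflammatory and chemokine genes fell as well. Of 35 inflammation genes 6 fell and none rose (median -0.17), among them the acute phase protein Saa3, which read 10.05, 8.21, 8.22 and 11.00 in iWAT against 12.03, 9.58, 10.66 and 12.26 in eWAT (-1.76 ± 0.27, adjusted p = 0.0221). Its depots overlapped across animals, while every animal was lower in iWAT. Lcn2, an iron-siderophore binding protein, differed by -1.89 ± 0.31 and the interleukin 1 antagonist Il1rn by -2.35 ± 0.50. Tnf did not pass (0.43 ± 0.34, adjusted p = 0.411). Of 31 chemokines and their receptors 5 fell, among them the monocyte attractants Ccl2 (-1.81 ± 0.24), Ccl9 (-1.60 ± 0.25) and Ccl6 (-1.53 ± 0.24) and the eosinophil attractant Ccl11, and Cxcl14 rose. The chemokine list as a whole did not fall, with 19 of 31 positive and a median of 0.13, against 0.08 over all genes. Its median was -0.41, 0.51, -0.21 and 0.20 in animals 1 to 4. Cxcl14 read 10.11, 10.00, 9.77 and 10.09 in iWAT, against 7.86, 6.15, 8.04 and 7.76 in eWAT (2.54 ± 0.35, adjusted p = 0.0167). The iWAT arrays lay close together, and eWAT control 2 was the lowest. The complement subunits C1qb and C1qc and the anaphylatoxin receptor C5ar1 fell by 1.21 to 1.68, the 3 of 21 complement genes that passed.

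**Figure D2:**
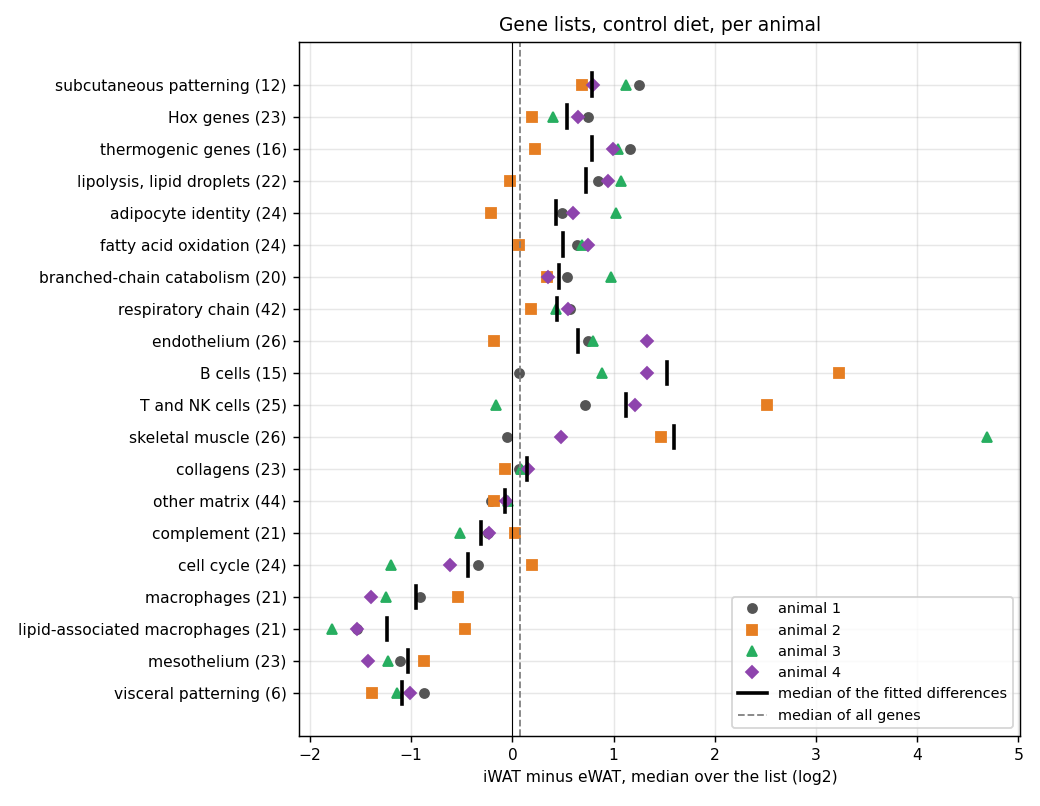
Median difference, iWAT minus eWAT (log2, horizontal axis), over the tested genes of 20 gene lists (number of genes in brackets), with 1 symbol for the median in each control animal, a black bar for the median of the fitted differences and a dashed line for the median of all 11050 genes (0.08). The mesothelial list lies between -1.42 and -0.87 in the 4 animals, while B cell genes spread between 0.06 and 3.22 and skeletal muscle genes between -0.05 and 4.69. Animal 2 lies nearest to 0 in both macrophage lists.

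Adipocyte genes differed in a small part. Of 24 adipocyte identity genes only Cidea rose and none fell, with 20 of 24 positive and a median of 0.43. Adipoq differed by 0.14 ± 0.22 (adjusted p = 0.693), the hormone gene Lep by -0.11 ± 0.25 (adjusted p = 0.797), the adipogenic receptor Pparg by 0.33 ± 0.26 (adjusted p = 0.409) and the desaturase Scd1 by -0.09 ± 0.22 (adjusted p = 0.81). Plin1 differed by 1.12 ± 0.41 and missed the threshold (adjusted p = 0.134). The mean level of the list was 12.15, 11.71, 11.85 and 12.04 on the iWAT arrays, against 11.37, 11.97, 10.86 and 11.22 on the eWAT arrays. The eWAT array of animal 2, the one low in macrophage genes, was the highest of eWAT and overlapped iWAT.

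Cidea, a lipid-droplet protein abundant in brown and beige adipocytes, read 10.17, 8.53, 8.94 and 9.93 in iWAT, against 6.13, 6.52, 5.37 and 6.52 in eWAT, 9.57-fold higher (3.26 ± 0.34, adjusted p = 0.00822). Of 25 thermogenic genes on the array 7 were detected on no iWAT array and 10 on no eWAT array. Ucp1, Prdm16 and Dio2 were among those detected on too few arrays to be tested. Of the 16 tested, Cidea, Cox8b, Otop1 and Cpt1b rose and none fell, with a median of 0.78. Cox8b, a cytochrome c oxidase subunit of brown fat and striated muscle, read 12.62, 11.82, 11.95 and 12.68 in iWAT, against 10.35, 10.19, 9.55 and 10.61 in eWAT (2.09 ± 0.23, adjusted p = 0.00883). Cpt1b, the muscle and brown fat form of the carnitine acyltransferase that admits fatty acids to mitochondria, read 8.23, 6.69, 8.06 and 8.90 in iWAT, against 6.59, 5.89, 6.04 and 6.77 in eWAT (1.65 ± 0.28, adjusted p = 0.0277). Animals 1 and 4 were the highest iWAT arrays in all 3 genes. Otop1, a proton channel described in thermogenic fat, differed by 1.33 ± 0.22 (adjusted p = 0.0273), with iWAT of animals 2 and 3 (8.41 and 8.31) below eWAT of animals 1 and 4 (8.55 and 8.94). Ppargc1a, the coactivator of mitochondrial genes, did not pass (0.47 ± 0.28, adjusted p = 0.286), and neither did the adrenergic receptor Adrb3 (0.47 ± 0.41, adjusted p = 0.461).

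Genes that restrain lipolysis or coat the lipid droplet also rose. Of 22 genes of lipolysis and lipid droplets 5 rose and none fell, with a median of 0.73, beside 1.5% of all genes that rose. Besides Cidea these were Hcar2 and Hcar1, the receptors for hydroxybutyrate and lactate, and Adra2a, the inhibitory alpha-2A adrenergic receptor, all of which dampen lipolysis through inhibitory G proteins, and Plin5, a droplet coat protein of oxidative tissues. Hcar2 read 9.73, 9.99, 9.70 and 9.52 in iWAT, against 8.13, 8.72, 7.64 and 7.93 in eWAT (1.63 ± 0.23, adjusted p = 0.0175). Adra2a read 6.75, 7.72, 7.22 and 7.55 in iWAT, against 5.95, 6.03, 6.10 and 6.00 in eWAT (1.29 ± 0.24, adjusted p = 0.0354). Hcar1 read 10.22, 10.54, 10.62 and 10.33 in iWAT, against 8.76, 9.88, 8.63 and 8.69 in eWAT (1.44 ± 0.27, adjusted p = 0.0355). In these 3 receptors the depots did not overlap. The triglyceride lipase Pnpla2 (0.66 ± 0.26, adjusted p = 0.152) and the hormone-sensitive lipase Lipe (0.92 ± 0.51, adjusted p = 0.262) did not pass. Without animal 1, 2, 3 and 4 the list held 2, 12, 0 and 0 rises, beside 74, 1015, 5 and 10 rises over all genes.

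None of 42 respiratory chain genes passed, while 40 of 42 were positive, beside 55.4% of all genes, and the median was 0.44. An unadjusted p under 0.05 with limma was found for 14 of 42, not far above the share over all genes (3147 of 11050). The mean level of the list was 11.56 to 11.81 in iWAT and 11.13 to 11.40 in eWAT, and the depots did not overlap. Of 24 genes of fatty acid oxidation 2 rose, Cpt1b and the hydroxyacyl dehydrogenase Hadh (1.18 ± 0.22, adjusted p = 0.0339). Of 20 genes of branched-chain amino acid catabolism 2 rose, the cytosolic transaminase Bcat1 (1.44 ± 0.22, adjusted p = 0.0221) and the thiolase Acat1 (1.34 ± 0.24, adjusted p = 0.033). Pck1, which makes glycerol phosphate for triglyceride from pyruvate, read 9.45, 10.55, 10.68 and 9.58 in iWAT, against 7.53, 9.81, 9.10 and 7.93 in eWAT (1.47 ± 0.26, adjusted p = 0.0306). It was higher in iWAT in every animal, while the depots overlapped across animals. None of 16 lipogenesis genes passed.

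Skeletal muscle genes also varied between these arrays, and Cox8b, Cpt1b and Hadh are expressed in muscle. The mean level of 26 muscle genes was 6.18, 7.88, 9.94 and 6.49 on the iWAT arrays, against 6.15, 5.98, 5.79 and 5.96 on the eWAT arrays, and 25 of 26 were positive, though none passed. Tnnc2, the fast muscle troponin C, read 5.87, 9.63, 12.14 and 6.38 in iWAT, against 5.40, 5.48, 4.49 and 4.77 in eWAT, and Acta1, skeletal actin, 10.63, 11.34, 13.30 and 10.92 in iWAT, against 9.31, 9.94, 8.68 and 9.94 in eWAT. The mean muscle level was highest in iWAT of animal 3 and then of animal 2. Of 34 muscle genes on the array 6 were detected on no iWAT array and 15 on no eWAT array. The part of muscle tissue in the rises of Cox8b, Cpt1b and Hadh was not tested.

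**Figure D3:**
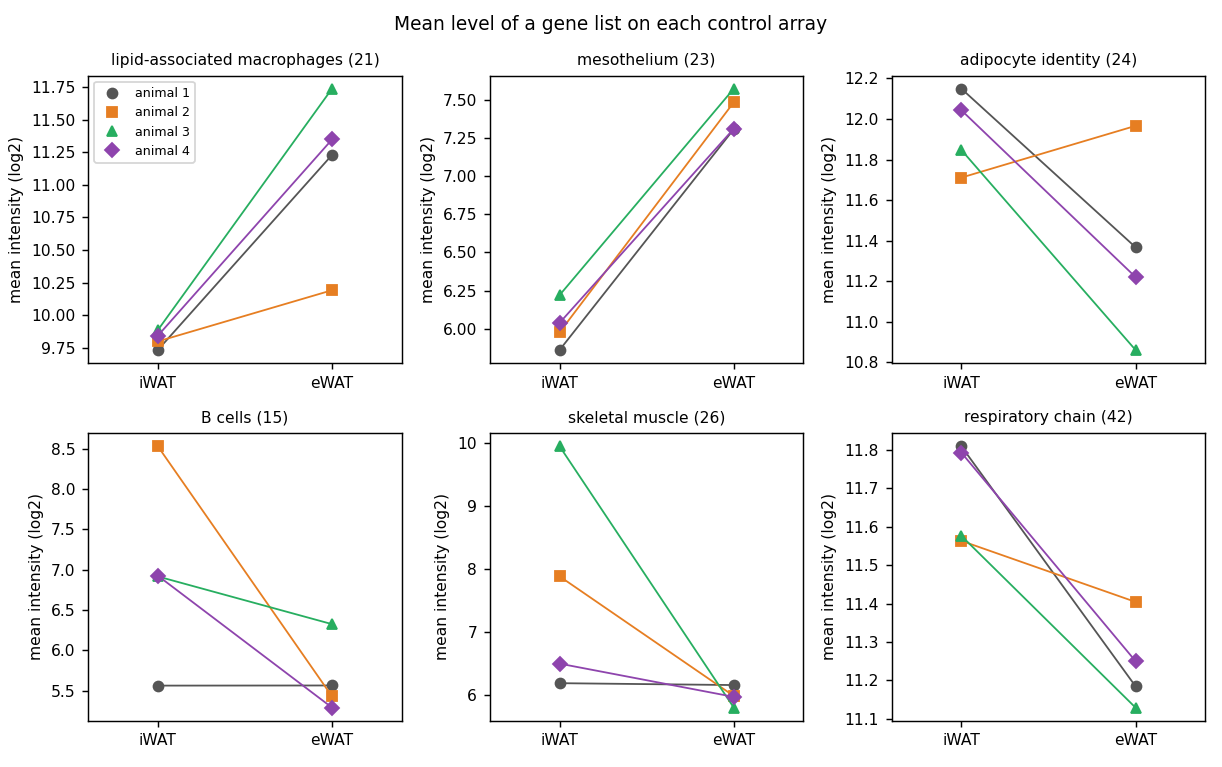
Mean normalised intensity (log2, vertical axis) over the tested genes of 6 gene lists (number of genes in brackets) on each control array, iWAT left and eWAT right, with a line joining the arrays of an animal. The mesothelial lines run nearly in parallel, with 5.86 to 6.22 in iWAT and 7.31 to 7.57 in eWAT. The eWAT array of animal 2 is low in lipid-associated macrophage genes (10.19), and single iWAT arrays are high in B cell genes (8.53, animal 2) and in muscle genes (9.94, animal 3).

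Of 15 B cell genes 1 rose and none fell in iWAT, and of 25 T and NK cell genes none rose and 1 fell. Fcmr, the IgM receptor of B cells, read 7.15, 12.31, 9.99 and 10.65 in iWAT, against 5.61, 5.74, 7.91 and 5.63 in eWAT (3.80 ± 0.77, adjusted p = 0.0418), and it was the B cell gene that passed. The median over the 15 was 1.52, with 12 of 15 positive. Their mean level was 5.56, 8.53, 6.92 and 6.93 on the iWAT arrays, against 5.56, 5.43, 6.32 and 5.29 on the eWAT arrays. Animal 1 had the same level in both depots, and animal 2 the widest gap. Of the T and NK cell genes 22 of 25 were positive in control mice, with a median of 1.12. Their median per animal ran from -0.16 in animal 3 to 2.51 in animal 2. In the scoparia mice 12 of 15 B cell genes and 18 of 25 T and NK cell genes rose and none fell. Beside these counts, 7.37% of all genes rose there and 9.71% fell. In control mice T cell genes such as Cd3e (1.95 ± 0.53, adjusted p = 0.0801) and the lymph node homing receptor Ccr7 (1.76 ± 0.46, adjusted p = 0.074) did not pass, and the perforin gene Prf1 fell (-1.59 ± 0.27, adjusted p = 0.0285).

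Genes of lymph node vessels and antigen presentation varied over the same iWAT arrays. Glycam1, a mucin-like ligand for L-selectin made by high endothelial venules, read 5.02, 10.51, 7.72 and 8.82 in iWAT, against 4.35, 4.48, 4.43 and 4.45 in eWAT, where it was not detected (at least 8.21-fold, adjusted p = 0.0418). H2-Ob, a class II chaperone subunit of B cells, read 6.13, 9.55, 7.47 and 8.14 in iWAT, against 5.32, 5.81, 6.10 and 4.88 in eWAT (2.29 ± 0.49, adjusted p = 0.0471). Both were lowest in iWAT of animal 1 and highest in animal 2, in the order of the B cell level, and the part of lymph node tissue in these 2 results was not tested. Dnase1l3, a secreted nuclease of dendritic cells and macrophages, read 7.42, 8.76, 6.61 and 7.96 in iWAT, against 4.85, 5.33, 4.60 and 4.75 in eWAT (2.80 ± 0.29, adjusted p = 0.00727). Ackr1, a chemokine-binding receptor of venules, differed by 1.23 ± 0.24 (adjusted p = 0.0396) and was the only one of 26 endothelial genes to pass, with 22 of 26 positive.

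A few nerve and stromal genes rose. Of 10 nerve genes 2 rose and none fell, with a list median of 0.19, and Prx, a Schwann cell protein, was among them, at 5.33, 6.26, 6.05 and 6.40 in iWAT, against 4.61, 4.53, 4.44 and 4.79 in eWAT, where it was not detected (at least 2.04-fold, adjusted p = 0.0314). The progenitor marker Thy1 (1.25 ± 0.26) and the Wnt ligand Wnt2 (1.64 ± 0.30) rose, 2 of 23 progenitor genes. Of 44 matrix genes other than collagens 4 fell, among them Spp1 and the lysyl hydroxylase Plod2, and the proteoglycan Podn rose, while 1 of 23 collagens, Col4a5 of basement membranes, fell (-1.16 ± 0.22, adjusted p = 0.0366).

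Enzymes of retinoid and xenobiotic metabolism were among the leading rises. Adh7, a class IV alcohol dehydrogenase that oxidises retinol, read 7.95, 8.69, 8.76 and 8.11 in iWAT, against 4.67, 4.74, 5.44 and 4.82 in eWAT (3.46 ± 0.23, adjusted p = 0.00132). Cyp2f2, a cytochrome P450 known from the airway, read 7.14, 10.02, 8.07 and 7.43 in iWAT, against 4.79, 5.64, 4.97 and 5.33 in eWAT (2.98 ± 0.38, adjusted p = 0.0144). Of 36 antioxidant and xenobiotic genes Cyp2f2, the carboxylesterase Ces1f (2.05 ± 0.26) and the glutathione transferases Gstt1 (1.59 ± 0.24) and Gsta4 (1.75 ± 0.36) rose, and the sulfiredoxin Srxn1 fell. Fosb, an immediate early partner of Jun in the AP-1 factor, read 9.70, 10.86, 11.19 and 10.79 in iWAT, against 6.03, 6.21, 5.87 and 6.73 in eWAT, 21.5-fold higher (4.42 ± 0.30, adjusted p = 0.00137). Egr1, another immediate early gene, differed by 0.97 ± 0.21 and missed the threshold (adjusted p = 0.0505), and the zinc finger factor Klf6 fell (-1.36 ± 0.25, adjusted p = 0.0339). The decoy receptor of interleukin 1, Il1r2, read 6.98, 9.02, 9.80 and 8.13 in iWAT, against 5.75, 5.28, 5.77 and 6.25 in eWAT (2.72 ± 0.47, adjusted p = 0.03). All arrays of iWAT lay above all arrays of eWAT in Adh7, Cyp2f2, Fosb and Il1r2, as the rule that named these leading genes required.

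Major urinary proteins, lipocalins that carry small lipophilic molecules, were higher in iWAT. Mup1 read 9.45, 11.95, 11.60 and 11.01 in iWAT, against 6.51, 6.14, 7.42 and 9.32 in eWAT (3.65 ± 0.58, adjusted p = 0.0249), and Mup6 8.64, 10.84, 10.84 and 9.80 in iWAT, against 6.32, 4.84, 6.23 and 7.96 in eWAT (3.70 ± 0.64, adjusted p = 0.0298). The eWAT array of animal 4 was the highest of its depot in both. It lay below the lowest iWAT array, as the rule required, at 9.32 against 9.45 for Mup1 and 7.96 against 8.64 for Mup6. The Mup genes are nearly identical copies, so these probes may read several of them and are not separate evidence. Among secreted factors of fat, the epidermal growth factor relative Nrg4 rose (1.43 ± 0.31, adjusted p = 0.0493), and the meteorin relative Metrnl (-1.86 ± 0.29), Lcn2 and the growth factor Fgf1 (-1.24 ± 0.27) fell. Agt, which encodes angiotensinogen, differed by -1.64 ± 0.39 and missed the threshold (adjusted p = 0.0584).

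The same depot comparison in the 4 scoparia mice called more genes. There 1887 of 11050 passed (17.1%), 814 higher in iWAT (7.37%) and 1073 lower (9.71%). Of the 405 genes of the control mice 238 passed there in the same direction, 58.8% of the control list and 12.6% of the scoparia list, 1 passed in the opposite direction and 360 (88.9%) had the same sign. All 30 leading genes passed there in the same direction. Hoxc10 differed by 3.79 and Upk3b by -5.13 in scoparia mice, Fosb by 3.94 and Cidea by 2.21. Some patterning and thermogenic genes that rose in control mice did not pass in scoparia mice: En1 differed there by 0.57 (adjusted p = 0.067), Twist2 by 0.65 (adjusted p = 0.097), Otop1 by 0.50 (adjusted p = 0.18) and Cpt1b by 0.62 (adjusted p = 0.18). A direct test of the difference between diets called 0 genes with limma (smallest adjusted p = 0.134, 1867 genes at an unadjusted p under 0.05), so no gene was shown to differ in its depot effect between the diets in that fit. Without the animal block the same test called 6 genes, among them Gsc, whose depot difference was smaller by 1.90 in scoparia mice (adjusted p = 0.0408).

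**Figure D4:**
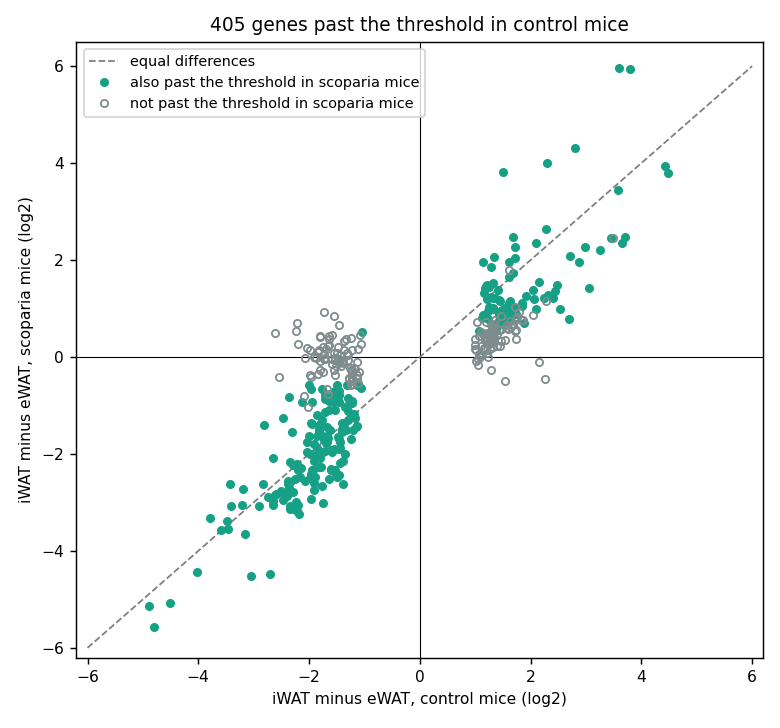
Difference iWAT minus eWAT (log2) in scoparia mice (vertical axis) against that in control mice (horizontal axis) for the 405 genes that passed the test in control mice, filled where they also passed in scoparia mice. The 30 leading genes keep their direction in both, while the 84 genes that were lower in iWAT of control mice and did not pass in scoparia mice lie around 0 there (median -1.53 in control and -0.04 in scoparia mice).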

How the data were processed

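RNA of 16 tissue samples was read on Illumina bead arrays, from 400 ng each, and 8 arrays enter the comparison. Per the file headers, the scanner table deposited by the authors gives 25697 probes a linear signal intensity and a p-value of detection on each array. The authors also deposited normalized intensities, made by steps not given in the sources used here. GenomeStudio and limma 3.18.13 are named in the submitters' processing notes.

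From the deposited scanner intensities, neqc in limma 3.58.1 (R 4.3.3) corrected the background (normal-exponential model, negative controls inferred from detection, offset 16), quantile normalized all 16 arrays and gave log2 values. A probe was kept if detected (p under 0.05) on 4 or more of 16 arrays, which left 15052, and the kept probe with the highest mean stood for each of 11050 genes. Gene names on the array were updated through RefSeq tables of GRCm38.p6: 20736 matched by symbol, 3872 through a synonym, while 104 with an ambiguous synonym and 985 with no match kept the array's name.

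The depots were compared with lmFit and eBayes on the 8 control arrays with the animal as a block, with Benjamini-Hochberg adjustment over all genes tested. The comparison is defined as paired, but the labels give the animal only as a number, and the deviations of same-numbered arrays from their group means correlated at 0.32, -0.21, 0.20 and 0.0026, so the unpaired count stands beside the paired one. The test therefore rests on the spread among these 4 mice and their tissue pieces, which eBayes draws toward a value shared by all genes. A gene detected on no array of a depot gets a lower limit of the fold ("at least"), computed against the higher of its own reading and the lowest detected signal of each array. The number of arrays limits the precision.

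Genes were named by rule: the 15 largest rises and 15 largest falls that passed with the same sign in all animals, no overlap of arrays, and detection on at least 3 arrays of the higher depot, without predicted names, plus up to 4 members of each list by smallest p and a list of adipose genes of interest. Other members that passed are named after their values were seen, and a few genes that passed are counted but not reported here by name. The comparison, the 50 gene lists and the alternatives were chosen with earlier results of these data known. The fit was tested on simulated data. Alternatives changed the block, the arrays, the scaling, the background, the filter, the probe choice, the weights and the variance prior, and left out animals in turn.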

Additional observations from a re-analysis of the deposited data

Results flagged for a closer look

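Of 164 groups of 4 arrays checked for a single array far from the others, 10 stood out, where chance gives about 1 in 20 groups. The eWAT array of animal 2 accounted for 5 of them, with the lowest Cxcl14 (6.15, the nearest at 7.76), the lowest Tlr8 (7.30, the nearest at 8.78) and the lowest mean levels of the inflammation list (7.97), the matrix list (9.16) and the cell cycle list (7.34). The iWAT array of animal 3 had the highest Lilr4b (6.72, the nearest at 5.74), the highest Hpgds (6.18) and the highest Upk1b (4.62) of its depot. The iWAT array of animal 4 had the lowest Tnfrsf11b (4.42), and that of animal 2 the lowest mean level of the skin and mammary epithelium list (5.87). Upk1b and Tnfrsf11b were not detected on any iWAT array, so those 2 values lie below the detection level. The difference in depot effect between the diets was tested for all genes and flagged none in the fit with the animal block.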

How the results depend on the processing

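The number of genes past the threshold depended strongly on the settings. All 405 had the same sign in all 4 animals, which by itself fixes the sign of the same probe in fits that drop an animal or the block, and 1 of 278 changed sign when a probe had to be detected on all 8 arrays. With no replicate block 718 genes passed (355 higher, 363 lower), 369 of them among the 405. Fitting all 16 arrays gave 2743 (1446 higher, 1297 lower) without and 2418 (1201 higher, 1217 lower) with the replicate block. Median scaling gave 725 (310, 415) and moved the median of all genes to 0.14, an offset of 50 gave 212 (89, 123), no background correction 25 (17, 8), the authors' deposited normalized intensities 10 (5, 5), no filter on dim probes 78 (38, 40), detection on all 8 arrays 235 (99, 136), array weights 6850 (3770, 3080) and an intensity trend 611 (373 lower). Leaving out 1 animal at a time gave 11 to 2022 genes (5 to 1015 higher, 6 to 1007 lower), and leaving out animals 1 and 4 together gave 0 with limma, with 729 at an unadjusted p under 0.05. Added after seeing the data, unpaired fits gave 1500 (723, 777) without the array eWAT control 2 and 258 (142, 116) without iWAT control 1 and 4. The cause of these shifts was not tested, beyond the fewer arrays or genes in a fit. In scoparia mice 462 to 2793 genes passed with 1 animal left out. The difference between diets called 6 genes without the block, against 0 with it. Some named genes that did not pass changed sign, Lep and Scd1 among them. The median of the complement list was 0.014 under median scaling and 0.063 with detection on all 8 arrays, against -0.31 in the paired fit, and that of the collagens -0.11 without iWAT control 1 and 4, against 0.14. Medians of other lists near 0 also changed sign under some settings, such as those of the adipokines and of the Wnt and BMP genes. Of the leading genes, 5 and 8 of 15 rises and 4 and 6 of 15 falls still passed without animal 3 and animal 4, and all 30 without animal 1 or 2. Genes near background, whose lower depot is not detected, are limited by signal.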

Other observations

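F7, the protease that starts coagulation with tissue factor, was lower in iWAT by -2.64 ± 0.35 (adjusted p = 0.016) and F10, its substrate, by -1.91 ± 0.40 (adjusted p = 0.047), with -2.97 and -2.74 in scoparia mice. Of other genes that were lower in iWAT, the shared Fc receptor chain Fcer1g differed by -1.47 ± 0.28, Cd300ld by -2.64 ± 0.24, the membrane protein Ms4a6d by -2.08 ± 0.34, the lysosomal proton pump subunit Atp6v1a by -2.31 ± 0.32 and the peptide transporter Slc15a3 by -1.80 ± 0.37. The C-type lectins Cd209b (1.51 ± 0.32) and Clec4g (1.34 ± 0.21), known from lymph node and liver sinusoids, were higher in iWAT, with 3.82 and 2.07 in scoparia mice. These genes lie outside the fixed rule and were chosen after their values were seen.

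Of the gene lists not described above, cell cycle genes had 3 of 24 positive and a median of -0.44, and only Top2a, the topoisomerase of dividing cells, fell (-1.49 ± 0.27, adjusted p = 0.0338), against 0.08 in scoparia mice. All 8 erythroid genes were positive and none passed (median 0.70). Mural and smooth muscle genes had 13 of 15 positive and none passed (median 0.52). Of 15 clock genes 2 rose, among them Tef (1.06 ± 0.22). Of 16 mast cell and granulocyte genes Prtn3 rose (median -0.24), of 22 interferon genes Usp18 rose (median -0.01), and of 19 genes of the unfolded protein response Pdia3 fell (median -0.23). Of 17 class I genes Tapbp rose and Pdia3 fell, and of 16 class II genes H2-Ob rose and the protease Ctss fell. Of 21 metalloproteinase genes and inhibitors Mmp9 rose and Mmp12 and Adam8 fell, of 33 Wnt and BMP genes Wnt2 rose, of 20 retinoid genes Adh7 rose, of 17 triglyceride genes Pck1 rose, of 37 growth factors Fgf1 fell, and of 12 expansion genes Trem2 fell. None passed among 15 genes of fatty acid uptake, 22 of insulin and glucose handling, 23 of the citric acid cycle, 18 of cholesterol and 12 of steroid metabolism. Of 44 adipose genes of interest 4 rose and 10 fell.

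With limma, the test of the difference between diets called 0 genes in the fit with the replicate block (1867 at an unadjusted p under 0.05) and 6 without the block. The 84 that were higher in both groups of mice had median differences of 1.62 in control and 1.22 in scoparia mice, and the 82 that were higher in control mice and did not pass in scoparia mice 1.32 and 0.41, with 73 of 82 of the same sign in scoparia mice. The 154 lower in both had medians of -1.82 and -1.95, and the 84 that were lower in control mice and did not pass in scoparia mice -1.53 and -0.04, with 49 of 84 of the same sign in scoparia mice. Over those 84 genes the mean level was 6.46, 6.81, 7.22 and 6.43 in iWAT of animals 1 to 4, against 8.36, 8.34, 8.22 and 8.25 in eWAT. The iWAT arrays of animals 1 and 4, which stood apart on the first principal component, were the lowest. These sets were formed from the results, so the values are a description. Tapbp, a chaperone of class I loading, read 10.53, 9.05, 8.45 and 10.60 in iWAT, against 7.54, 7.49, 7.24 and 7.75 in eWAT, and differed by -0.10 in scoparia mice, and its other probe differed in the opposite direction in control mice.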
